A study of Mus musculus with 8 samples.

Results

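The peaks described here are those of an RNA immunoprecipitation experiment in mouse liver nuclei that overlap, by at least 1 bp, a gene annotated as snRNA, misc_RNA, rRNA or ribozyme in GENCODE M21 (mm10), and that overlap no snoRNA, scaRNA or miRNA gene. There were 311 such peaks among 206501 peaks in 4 lists, and they lay over 205 of the 2321 annotated genes of these 4 types. By list they numbered 47 of 38209 peaks in fasted liver, 105 of 61737 peaks 2 h after re-feeding, 72 of 50609 peaks 10 h after re-feeding and 87 of 55946 peaks with IgG. These are 0.123% of the fasted, 0.17% of the 2 h, 0.142% of the 10 h and 0.156% of the IgG list. By gene type, 110 of 1383 snRNA genes, 70 of 562 misc_RNA genes, 19 of 354 rRNA genes and 6 of 22 ribozyme genes lay under a peak in some list.

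Nuclear lysates came from wild-type C57BL/6 mice aged 14 weeks, and RNA was pulled down through NONO, which binds RNA in nuclear bodies called paraspeckles. The 3 NONO groups were livers of fasted mice (zeitgeber time 10), of mice re-fed for 2 h (zeitgeber time 14) and of mice re-fed for 10 h (zeitgeber time 22). Feeding and the hour of the day therefore cannot be told apart. The control was an IgG immunoprecipitate, and for it no label states when or in which feeding state the livers were taken. Animals of every group lived under 12 h of light a day and had been restricted to feeding in the dark. Each of the 8 libraries (an immunoprecipitate and an input per group) pooled 2 experiments, so every group had 1 library, no difference had a replicate error and no p-value was computed. Intervals given below are 95% intervals that cover counting error only.

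Small nuclear RNAs are short non-coding transcripts that work as ribonucleoproteins. U1, U2, U4, U5 and U6 build the spliceosome that removes most introns, and U11 and U12 serve the minor spliceosome. 7SK holds the transcription elongation factor P-TEFb in an inactive complex, 7SL is the RNA of the signal recognition particle, and RNase P and RNase MRP RNAs are the catalytic or core RNAs of enzymes that process tRNA and rRNA precursors. Mammalian genomes also carry many dispersed copies of these RNAs, most of them thought to be pseudogenes, and many of those copies sit inside introns of other genes. A peak over such a copy can hold reads from the small RNA, from the host transcript or from a near-identical gene elsewhere.

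The sequences below are of the genes on which the results turn, taken from the GENCODE M21 transcripts (GRCm38) and written 5′ to 3′. The first set holds the 3 named RNAs that carried most IgG tags, Rn7sk (7SK RNA, chr9:78175303-78175633, minus strand, bases 1 to 300 of 331), Rpph1 (RNase P RNA, chr14:50807449-50807767, minus strand, bases 1 to 300 of 319) and Rmrp (RNase MRP RNA, chr4:43492788-43493058, minus strand). Capitals in Rn7sk mark the letters GATC, which occur 3 times in the stretch shown.
Rn7sk: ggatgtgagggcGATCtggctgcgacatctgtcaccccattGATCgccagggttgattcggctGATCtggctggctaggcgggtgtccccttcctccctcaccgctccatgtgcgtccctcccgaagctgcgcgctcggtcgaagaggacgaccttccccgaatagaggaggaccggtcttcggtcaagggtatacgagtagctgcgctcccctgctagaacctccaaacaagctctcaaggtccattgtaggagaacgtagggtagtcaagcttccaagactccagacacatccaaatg
Rpph1: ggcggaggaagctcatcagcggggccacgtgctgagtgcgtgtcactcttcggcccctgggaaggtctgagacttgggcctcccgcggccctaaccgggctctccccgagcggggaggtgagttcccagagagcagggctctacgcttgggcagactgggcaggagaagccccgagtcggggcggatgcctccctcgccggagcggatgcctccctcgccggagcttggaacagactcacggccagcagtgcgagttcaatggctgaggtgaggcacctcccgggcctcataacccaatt
Rmrp: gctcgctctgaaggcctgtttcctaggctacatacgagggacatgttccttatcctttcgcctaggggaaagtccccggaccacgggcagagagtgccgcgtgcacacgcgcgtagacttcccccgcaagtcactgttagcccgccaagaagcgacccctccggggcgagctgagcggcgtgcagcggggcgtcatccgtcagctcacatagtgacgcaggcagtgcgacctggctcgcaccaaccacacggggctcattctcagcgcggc
The next pair are Rnu2-10 (U2 RNA, chr11:101658238-101658428, plus strand) and Rnu11 (U11 RNA, chr4:132270080-132270213, minus strand), the named spliceosomal RNAs with a NONO peak.
Rnu2-10: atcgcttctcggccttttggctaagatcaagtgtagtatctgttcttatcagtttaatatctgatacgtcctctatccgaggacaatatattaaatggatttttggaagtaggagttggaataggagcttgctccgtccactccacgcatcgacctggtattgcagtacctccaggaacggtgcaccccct
Rnu11: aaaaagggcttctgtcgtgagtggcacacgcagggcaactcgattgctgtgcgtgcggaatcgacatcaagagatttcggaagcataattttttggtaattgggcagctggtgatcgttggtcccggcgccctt
The third set compares 2 genes under peaks with the named U1 gene that they matched best, Rnu1a1 (chr11:87422867-87423030, plus strand), which had no peak in any list. Gm23686 (chr3:18177462-18177625, minus strand) had a peak in all 4 lists and is 97.6% identical to Rnu1a1. Gm22513 (chr12:54696782-54696945, plus strand) had a peak in the IgG list only and is 99.4% identical. Capitals mark the letters AATTTNTGG, the binding site of the ring of Sm proteins in U1.
Gm23686: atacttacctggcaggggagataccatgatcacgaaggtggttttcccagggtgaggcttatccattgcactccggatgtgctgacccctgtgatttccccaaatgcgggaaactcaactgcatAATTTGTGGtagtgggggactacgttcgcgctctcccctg
Gm22513: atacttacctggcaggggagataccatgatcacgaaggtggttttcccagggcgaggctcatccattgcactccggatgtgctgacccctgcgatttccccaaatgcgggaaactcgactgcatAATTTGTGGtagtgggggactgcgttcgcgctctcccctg
Rnu1a1: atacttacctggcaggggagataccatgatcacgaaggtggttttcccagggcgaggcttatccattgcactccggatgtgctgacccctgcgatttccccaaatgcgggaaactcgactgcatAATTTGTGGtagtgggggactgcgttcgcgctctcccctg
The last pair are the genes nearest to Rn7sk under the most tagged NONO peaks, Gm24597 (chr13:91744705-91745004, minus strand) and Gm26372 (chr14:21263624-21263859, plus strand). Gm24597 aligned to Rn7sk at 72.1% identity over 73.0% of its length and has 5 GATC copies, in capitals. Gm26372 aligned at 76.4% identity over 71.6% of its length and has none.
Gm24597: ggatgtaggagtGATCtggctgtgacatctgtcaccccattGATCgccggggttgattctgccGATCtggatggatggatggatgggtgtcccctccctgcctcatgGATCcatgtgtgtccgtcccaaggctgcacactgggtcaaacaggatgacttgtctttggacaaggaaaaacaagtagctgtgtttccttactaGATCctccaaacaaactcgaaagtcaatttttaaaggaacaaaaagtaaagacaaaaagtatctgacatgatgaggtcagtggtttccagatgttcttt
Gm26372: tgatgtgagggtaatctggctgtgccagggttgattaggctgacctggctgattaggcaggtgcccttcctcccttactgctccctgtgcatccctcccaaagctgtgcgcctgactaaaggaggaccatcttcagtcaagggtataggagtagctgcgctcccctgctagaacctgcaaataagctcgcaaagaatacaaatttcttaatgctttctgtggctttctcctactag

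Small RNA genes were found at nearly the same rate in all 4 lists, while their tags differed by orders of magnitude. The fasted list had 48 such genes under a peak, the 2 h list 105, the 10 h list 72 and the IgG list 90. Per Mb of peak this was 1.62 genes (95% interval 1.19 to 2.15) in fasted, 1.48 (1.21 to 1.79) at 2 h, 1.61 (1.26 to 2.03) at 10 h and 1.65 (1.33 to 2.03) with IgG. The 4 intervals overlapped, so no difference in gene rate between the NONO lists and IgG was detectable at this depth. Relative to the number of peaks, in contrast, the 2 h rate was 1.35 times and the 10 h rate 1.13 times the fasted rate, since the re-fed peaks were wider: the direction of the time difference depends on the unit.

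Tags in these peaks, normalised to 10000000 tags a library, summed to 42808.7 in fasted, 17986.5 at 2 h, 6252.8 at 10 h and 3854696.7 with IgG. Per Mb of peak they came to 1443.1 in fasted, 253.2 at 2 h, 139.7 at 10 h and 70623.2 with IgG. Small RNA peaks thus held 0.428% of all library tags in fasted, 0.18% at 2 h, 0.0625% at 10 h and 38.5% with IgG. One of the peaks sets most of the IgG value and another most of the fasted value. Without the Rn7sk peak, and scaled to the remaining library, the IgG value was 3114.4 normalised tags per Mb, above the 3 NONO values. That order rests on Rpph1: without it as well, an alternative chosen after seeing the data, the IgG value was 721.1, below the full fasted value and above 2 h and 10 h. Without peaks over Neat1, the long non-coding RNA at the core of paraspeckles, in which 3 of the misc_RNA genes lie, the fasted value was 430.1 and the other 2 NONO values did not move. That fasted value is below 721.1, so the order of fasted and IgG depends on which peaks are left out. Without peaks of 5000 bp or more the NONO values were 121.2 (fasted), 137.6 (2 h) and 126.6 (10 h), and the order of the times did not hold.

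**Figure D1:**
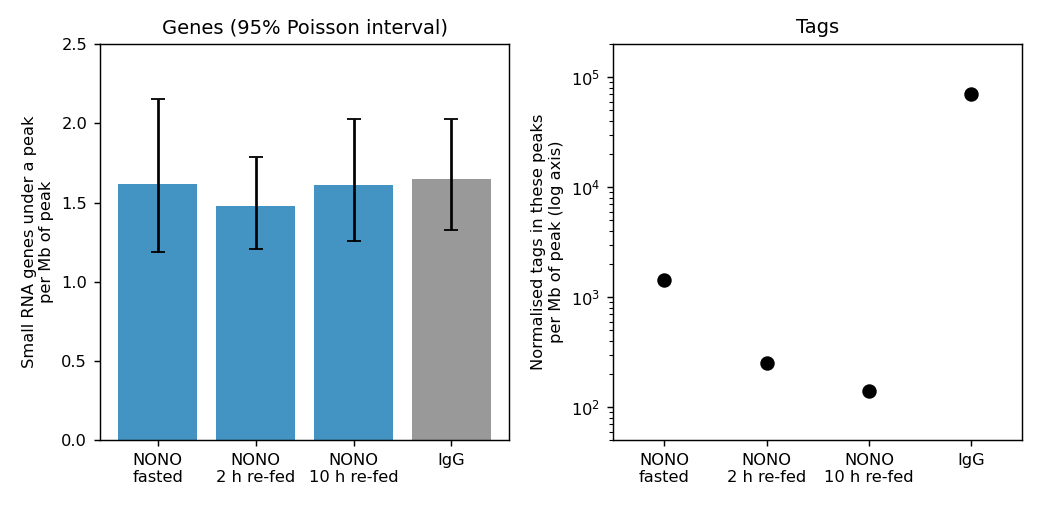
Small RNA genes under a peak per Mb of peak (left, bars from 0 with 95% Poisson intervals) and normalised tags in those peaks per Mb of peak (right, log axis, 1 point per list) for NONO fasted, NONO 2 h re-fed, NONO 10 h re-fed and IgG. The gene rates lie between 1.48 and 1.65, whereas the tag values run between 139.7 at 10 h and 70623.2 with IgG.

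A typical peak was much smaller than those sums. The median small RNA peak held 30.0 normalised tags in fasted, 24.2 at 2 h, 28.2 at 10 h and 17.4 with IgG, against 17.1, 17.1, 18.1 and 11.1 over all peaks of the same lists. Its median width was 1042 bp in fasted, 925 bp at 2 h, 960.5 bp at 10 h and 709 bp with IgG, against 625, 720, 643 and 646 bp over all peaks. The range was 10.5 to 30057.4 tags in fasted, 4.74 to 3940.1 at 2 h, 6.57 to 2118.2 at 10 h and 4.74 to 3748429.8 with IgG. Enrichment over input, as the authors' fold, was no higher than elsewhere, with medians of 2.54 (fasted), 2.98 (2 h), 2.78 (10 h) and 4.10 (IgG) against 2.82, 3.13, 2.84 and 4.16 over all peaks. At 3-fold or more stood 14 of the fasted, 52 of the 2 h, 26 of the 10 h and 60 of the IgG small RNA peaks. That is 29.8%, 49.5%, 36.1% and 69.0%, where all peaks of the 4 lists gave 44.4%, 53.9%, 43.6% and 73.8%.

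About as many of the NONO peaks were free of IgG as elsewhere. A peak that no IgG peak overlapped by 1 bp was seen for 28 of the fasted peaks (59.6%, interval 44.3 to 73.6), 53 of the 2 h peaks (50.5%, 40.5 to 60.4) and 39 of the 10 h peaks (54.2%, 42 to 66.0). Over all peaks of the lists the shares were 66.3% (fasted), 60.7% (2 h) and 60.5% (10 h). At 2 h the interval ended just below that share, and in the other 2 lists it held it. The largest peaks were not among those free of IgG: the 5 most tagged peaks of each of the 3 NONO lists all met an IgG peak.

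**Figure D2:**
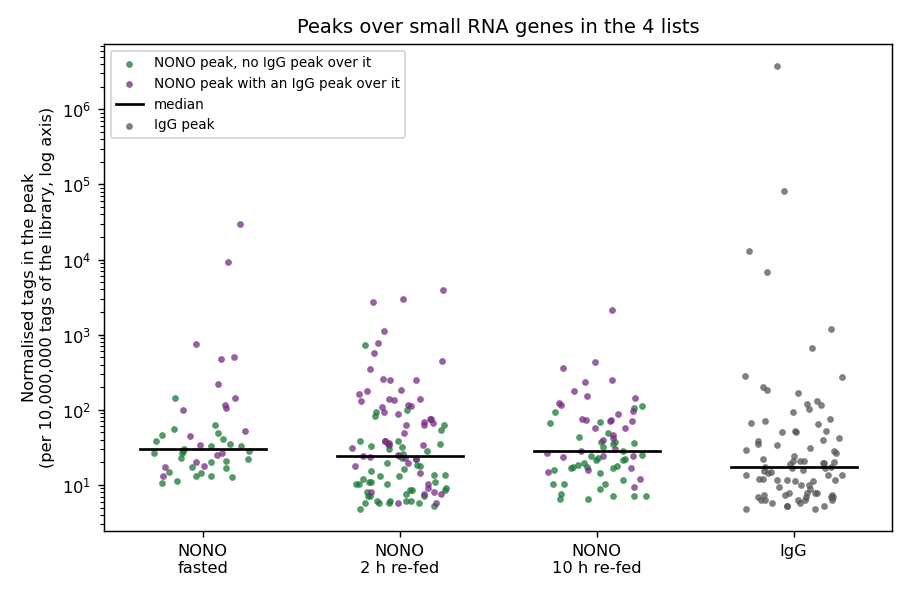
Normalised tags (log axis) of each peak over a small RNA gene in NONO fasted, NONO 2 h re-fed, NONO 10 h re-fed and IgG, with horizontal jitter, a black line at the median, and colour for whether an IgG peak overlaps the NONO peak. Most peaks hold 10 to 100 tags, and the isolated IgG points at the top are Rn7sk at 3748429.8 and Rpph1 at 81661.8 tags.

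Most genes that carry the symbol of an abundant small RNA were without a NONO peak, as were most small RNA genes of any kind (161 of 2321 had one). Of 23 annotated genes with a family symbol other than the n-R5s series of 5S rRNA copies, 6 had a peak: Rn7sk, Rpph1, Rmrp and Terc in the IgG list only, and Rnu11 and Rnu2-10 in the 10 h list only. Rn7s1 and Rn7s2 (7SL) had IgG peaks too, left out by the rule because they also overlap genes of the excluded types. Among the genes with no peak in any list were Rnu1a1, Rnu1b1, Rnu1b2 and Rnu1b6 (U1), Rnu5g (U5), Rnu6 (U6), Rnu7 (the histone pre-mRNA processing RNA U7), Rnu12 (U12), Rny1 and Rny3 (Y RNAs, partners of the Ro protein) and Vaultrc5 (vault RNA). Absence from a list means that the authors' thresholds, 2-fold over the matched input included, were not met, and not that tags were lacking. Exact copies under other names did have small IgG-free peaks (chosen after their values were seen). Gm22634, which has the same sequence as Rnu1a1, had 28.5 normalised tags at 3.07-fold at 10 h only, and Gm24967, which has that of Rnu6, had 6.16 tags at 4.13-fold at 2 h only. For scale, 13.9% of all 55450 annotated genes had a peak in fasted, 17.8% at 2 h, 16.6% at 10 h and 17.7% with IgG, whereas for the 2321 small RNA genes, which are far shorter, the shares were 2.07%, 4.52%, 3.1% and 3.88%.

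Rn7sk had a 627 bp peak in the IgG list (chromosome 9, 78175137 to 78175764) with 3748429.8 normalised tags at 3.96-fold over input, and none in the fasted, 2 h and 10 h lists. The peak took 37.5% of the IgG library and 97.2% of the tags in IgG small RNA peaks. Input tags at the peak were already 9.46% of the library size to which the authors scaled the input. On the scale of normalised tags per kb of peak it stood at 5978356.9.

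Rpph1 and Rmrp followed the same pattern. Rpph1 had 81661.8 normalised tags at 5.20-fold (130658.9 tags per kb) in the IgG list and no peak in any NONO list. Rmrp had 12953.9 normalised tags at 3.23-fold (25907.8 tags per kb) with IgG and no NONO peak. Since 37.5% of the IgG library lay over Rn7sk, the values rescale to 130626.1 tags for Rpph1 and 20721.0 tags for Rmrp per 10000000 tags outside that peak. These 2 RNAs are transcribed close to protein-coding neighbours: the annotation places Rpph1 inside Ccnb1ip1 and Rmrp inside Ccdc107. Terc, the template RNA of telomerase, had a far smaller IgG peak of 52.1 normalised tags at 8.58-fold (104.2 tags per kb) and no NONO peak. The IgG values of Terc and of the other single genes below are given without that rescaling, which would raise each by the same factor.

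Rnu11 had 178.4 normalised tags (interval 159.5 to 198.8) in a 500 bp peak at 10 h and no peak in fasted, at 2 h or with IgG over the gene itself. Its fold of 2.01 lay just above the authors' threshold of 2, on 162.2 input tags, and an IgG peak overlapped the NONO peak beside the gene. Rnu2-10 had 72.2 normalised tags (interval 60.4 to 85.7) at 2.26-fold in a 755 bp peak at 10 h and no peak in the other lists. Its sequence occurs 4 times in the annotation, so these tags cannot be assigned to this locus alone. That peak held 71.2% of the gene, ran past its 3′ end and also met an IgG peak. The peak over the only U5 match under a peak, Gm25099 (98.0% identical to Rnu5g, chosen here after its values were seen), held 33.2 tags at 2 h and 49.8 tags at 10 h, met no IgG peak, and covered only 7.76% of the gene at 2 h and 19.8% at 10 h.

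**Figure D3:**
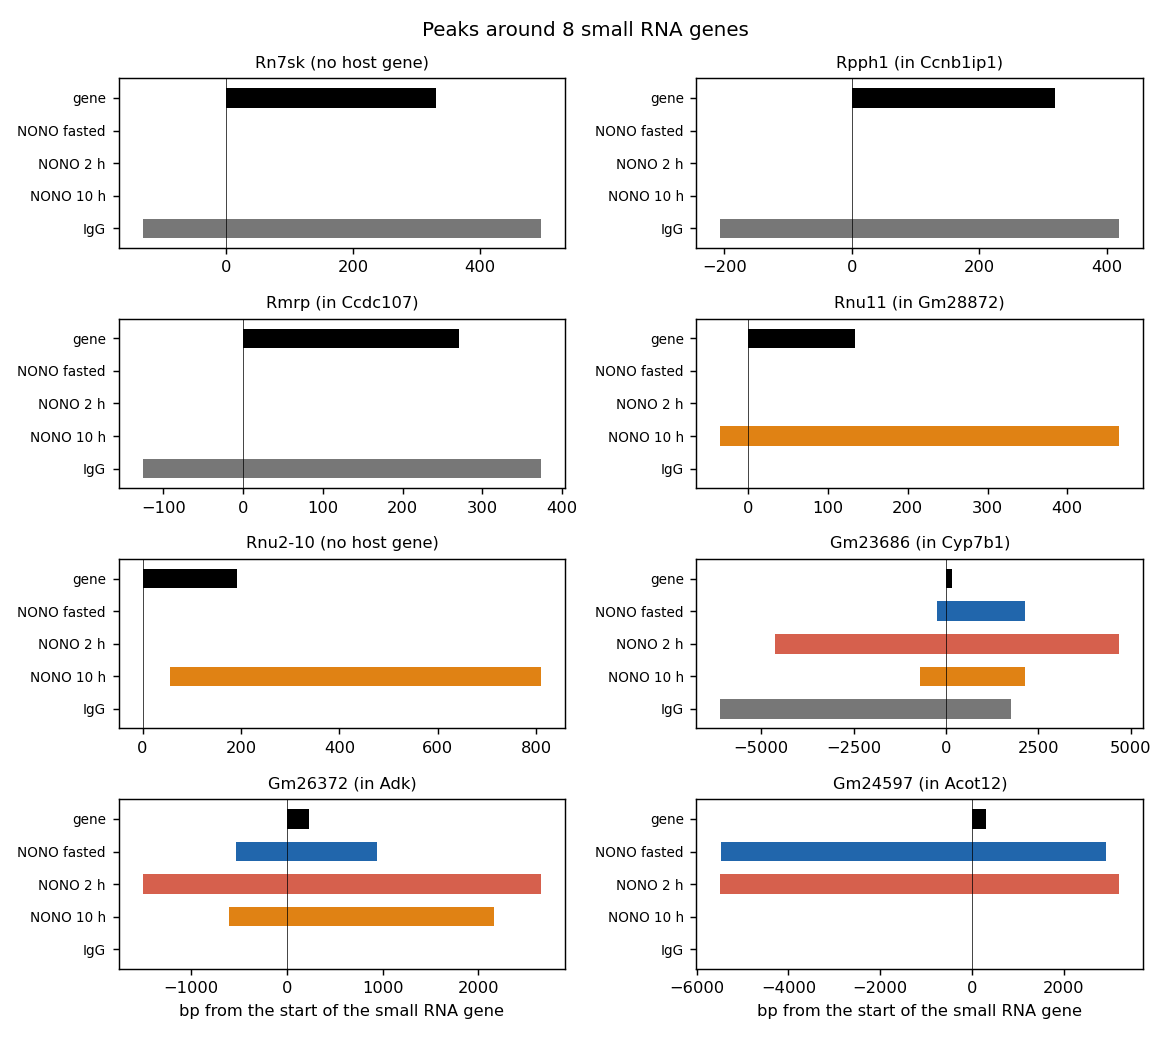
Positions of the peaks of NONO fasted, NONO 2 h, NONO 10 h and IgG around 8 small RNA genes (black), in bp from the start of the gene and in its direction of transcription, with each panel on its own scale and only peaks that overlap the gene drawn. The IgG peaks over Rn7sk, Rpph1 and Rmrp are 500 to 627 bp wide and centred near the gene, whereas the peaks over Gm23686, Gm26372 and Gm24597 extend over 1472 to 9306 bp of their host genes.

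Most of the peaks lay over copies inside other genes. In fasted liver 47 of the 48 genes under a peak lay in the body of a protein-coding or long non-coding gene and 1 outside, at 2 h 94 and 11, at 10 h 64 and 8, and with IgG 78 and 12. The annotation itself is evenly divided, with 1148 small RNA genes inside a host gene and 1173 outside. The midpoint of the nested genes lay in any peak of the list for 3.57% (fasted), 7.23% (2 h), 4.97% (10 h) and 6.01% (IgG) of them, while peaks covered 2.2%, 5.17%, 3.04% and 3.96% of the host gene bodies. For genes outside any host the shares were 0.0853% (fasted), 0.767% (2 h), 0.426% (10 h) and 1.11% (IgG). The share of all peaks that lie in gene bodies and the coverage of the space outside them are not given here. The split of nested and outside genes can therefore not be read as a trait of small RNA genes.

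The small RNA gene made up a minor share of the peak over it, which the lengths largely fix in advance. The genes under a peak had a median length of 119 nt, and no peak was narrower than 500 bp. The shares and counts that follow therefore do not locate the signal within a peak. The median share of the peak was 13.2% in fasted, 10.6% at 2 h, 10.6% at 10 h and 15.4% with IgG. At least 50% of the peak lay in the gene for 3 peaks in fasted, 5 at 2 h, 4 at 10 h and 18 with IgG. The peak nevertheless contained the whole gene in 38 of 48 cases in fasted, 77 of 105 at 2 h, 47 of 72 at 10 h and 67 of 90 with IgG. Peaks were called on both strands together, so a small RNA and its host transcript cannot be told apart in these tags.

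By sequence, the genes under a peak were led by relatives of U6, as in the annotation. Each gene was aligned with the named genes of the same annotation, and the best match over at least 50% of its length set its nearest family. This places 70 of the 944 genes nearest to U6 under a peak, 33 of 232 nearest to 7SK, 16 of 302 nearest to 5S rRNA, 15 of 197 nearest to U1 and 8 of 40 nearest to U2. As shares these are 7.42% (U6), 14.2% (7SK), 5.3% (5S), 7.61% (U1) and 20% (U2), beside 8.83% of all 2321 genes. No gene nearest to U12, Y1, Y3, 5.8S or vault RNA had a peak. A further 53 of the 471 genes with no match in a named family had one. Median identity to the named gene was 82.6% for U6, 79.6% for 7SK, 78.7% for 5S and 77.6% for U1, but 99.0% for U2.

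Genes nearest to 7SK made up a larger share of the IgG list than of the NONO lists. Apart from Rn7sk itself they numbered 4 in fasted, 11 at 2 h, 8 at 10 h and 19 in the IgG list, which is 8.33%, 10.5%, 11.1% and 21.1% of the small RNA genes of each list. Per Mb of peak they stood at 0.135 (interval 0.0367 to 0.345) in fasted, 0.155 (0.0773 to 0.277) at 2 h, 0.179 (0.0772 to 0.352) at 10 h and 0.348 (0.21 to 0.544) with IgG. The IgG rate was above the 3 NONO rates, but its interval overlapped each of theirs. The IgG peaks over them were narrow and thinly covered: 14 of 19 had the minimum width of 500 bp, with a median of 11.6 normalised tags and a median fold of 6.76 on 1.9 input tags. The NONO peaks over such genes had a median of 168.3 tags (fasted), 24.2 tags (2 h) and 24.1 tags (10 h), and 1 of 4, 4 of 11 and 4 of 8 were of the minimum width. In the IgG list these peaks stand beside the 3748429.8 tags of Rn7sk, and how reads that match several genes were placed is not given in the sources used here. The part of such reads in these peaks was not tested.

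Genes nearest to U6 were found at similar rates in the 4 lists. They made up 37.5% of the small RNA genes in fasted, 38.1% at 2 h, 33.3% at 10 h and 32.2% with IgG, or 18, 40, 24 and 29 genes. Their rate per Mb of peak was 0.607 (fasted), 0.563 (2 h), 0.536 (10 h) and 0.531 (IgG), with overlapping intervals. Median tags were 28.3 in fasted, 33.9 at 2 h, 41.6 at 10 h and 13.7 with IgG. The genes nearest to U1 numbered 5 (fasted), 8 (2 h), 6 (10 h) and 3 (IgG), those nearest to U2 3, 3, 6 and 3, and those nearest to 5S rRNA 4, 11, 5 and 4. These counts are too small to rank the lists.

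**Figure D4:**
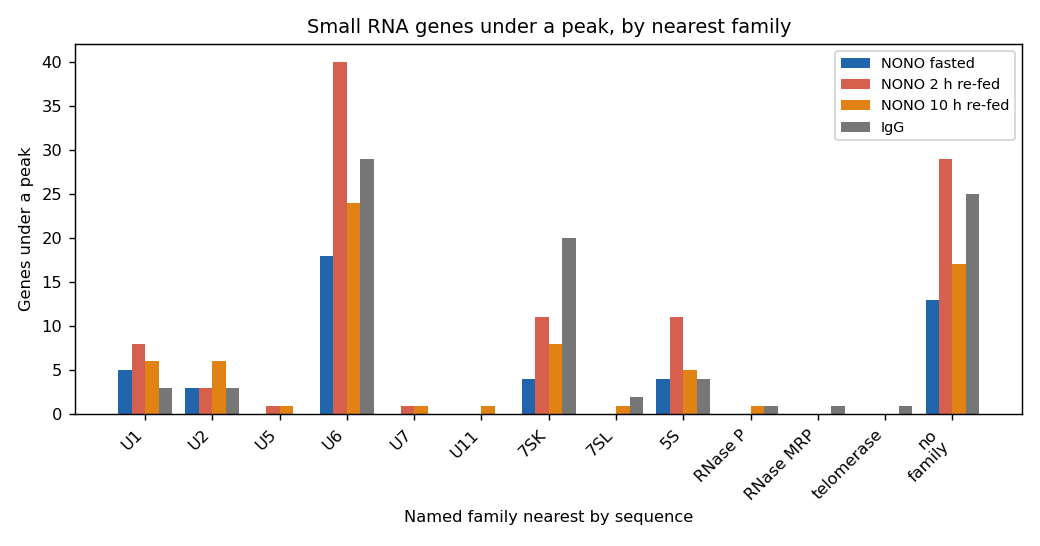
Number of small RNA genes under a peak by the named family nearest in sequence, with bars for NONO fasted, NONO 2 h re-fed, NONO 10 h re-fed and IgG (a single library each). U6 relatives lead every list with 18, 40, 24 and 29 genes, and 7SK relatives, Rn7sk included, number 4, 11, 8 and 20.

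Letters of functional sites were found at similar shares under peaks and in the annotation. The presence of GATC among the relatives of Rn7sk was somewhat more frequent under a peak, a difference that rests on few genes and was not tested. The Sm site of U1, AATTTNTGG on the transcribed strand, was present in 6 of the 110 snRNA genes under a peak (5.45%) and in 75 of all 1383 (5.42%). All 6 were nearest to U1. GATC, the letters of the 7SK stem bound by HEXIM proteins, which is its own reverse complement, was present in 83 of the 205 genes under a peak (40.5%) and in 39.1% of all small RNA genes. Among genes nearest to Rn7sk, itself included, it was present in 30 of 33 under a peak (90.9%) and in 81.9% of all 232. At least 3 copies of GATC were present in 21.2% of these genes under a peak and in 21.1% of all. An identical copy elsewhere in the annotation existed for 4 of the 205 genes under a peak and for 156 of all 2321, and for those 4 (Gm22634, Gm24967, Rnu2-10 and Gm23472) the tags cannot be assigned to 1 locus.

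6 genes had a peak in all 4 lists. CT010467.1, an rRNA-type entry on chromosome 17 (39846353 to 39848827) that overlaps the long non-coding genes AY036118 and Gm42418, had 510.6 normalised tags in fasted, 3357.8 in 2 peaks at 2 h, 2118.2 at 10 h and 6738.9 with IgG. In the sum IgG was highest and fasted lowest. The peaks differed in width, 1947 bp in fasted, 3804 bp in all at 2 h, 1680 bp at 10 h and 5838 bp with IgG. Per kb of peak the values were 262.2 (fasted), 882.7 (2 h), 1260.8 (10 h) and 1154.3 (IgG) tags. The 10 h value was highest as given, but IgG would be highest if rescaled to tags outside the Rn7sk peak. Folds were 3.13 (fasted), 27.02 and 2.10 (the 2 peaks at 2 h), 7.14 (10 h) and 24.65 (IgG). The 2 h peak with 3014.1 of the tags covered only 1.86% of the entry and lay mostly to the side of it, as the IgG peak did in part. The libraries were made after removal of rRNA, and its part in these values was not tested.

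Gm23686, the U1 relative shown above, lies in the body of Cyp7b1, which encodes the oxysterol 7-alpha-hydroxylase of bile acid synthesis. Its peak held 475.0 normalised tags in fasted, 2713.5 at 2 h, 234.7 at 10 h and 655.4 with IgG. The 2 h value was the highest of the 4, above IgG, and the 10 h value the lowest. Part of this was width, 2372 bp in fasted, 9306 bp at 2 h, 2864 bp at 10 h and 7866 bp with IgG. Per kb of peak the values were 200.3, 291.6, 81.9 and 83.3, so that fasted and 2 h exceeded both 10 h and IgG. Folds were 2.08 (fasted), 3.58 (2 h), 2.22 (10 h) and 2.56 (IgG), and the gene filled 1.76% to 6.91% of each peak.

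The other 4 had small peaks. Gm25321, nearest to U6 and within Ap1g1 (a clathrin adaptor subunit), had 145.0 normalised tags in fasted, 140.8 at 2 h, 153.8 at 10 h and 22.1 with IgG. The counting intervals of the 3 NONO values overlapped, and all lay above that of IgG. Per kb of peak the gap was narrower, 49.8 (fasted), 39.1 (2 h), 57.0 (10 h) and 27.0 (IgG). With IgG rescaled to tags outside the Rn7sk peak, the 2 h value per kb would no longer exceed it. Folds over input were in the other direction, 2.26, 2.38 and 2.23 in the NONO lists against 3.36 with IgG. Gm23169, nearest to U6 and within Ncoa2 (a nuclear receptor coactivator), had 52.3 (fasted), 33.7 (2 h), 75.0 (10 h) and 11.6 (IgG) normalised tags. Gm26020, nearest to U2 and within Atrx (a chromatin remodeller), had 24.7 (fasted), 181.1 (2 h), 17 (10 h) and 20.5 (IgG), with the 2 h sum above the rest. Its 2 h peak was 6919 bp wide, against 814 to 1146 bp in the other lists, and per kb of peak the values were alike, 21.6 (fasted), 26.2 (2 h), 20.9 (10 h) and 19.8 (IgG). Gm23138, nearest to U6 and within Tut4 (a uridylyltransferase), had 17.1 (fasted), 37.9 (2 h), 12.0 (10 h) and 6.84 (IgG). All NONO peaks over these 4 genes met an IgG peak. At each of the 4 the fold over input was highest with IgG, at 4.57 for Gm23169, 5.07 for Gm26020 and 6.76 for Gm23138.

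The largest NONO-only values over a nested copy were at Gm24597, the 7SK relative in Acot12, which encodes a cytosolic acetyl-CoA thioesterase. It had 9183.3 normalised tags (interval 9054.2 to 9313.7) in fasted and 3940.1 (3855.8 to 4025.7) at 2 h, and no peak over the gene at 10 h or with IgG. Fasted was the higher, also per kb of peak, with 1092.7 tags in fasted and 453.3 at 2 h. Enrichment was alike, 8.40-fold in fasted and 8.05-fold at 2 h. Input was 2079 tags in fasted and 983 tags at 2 h, not on the scale of the normalised tags. The peaks spanned 8404 bp in fasted and 8692 bp at 2 h, of which the gene is 3.57% and 3.45%, and both met an IgG peak elsewhere in the span.

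Gm26372, the 7SK relative in Adk (adenosine kinase), had 221.6 normalised tags in fasted, 777.6 at 2 h and 365.0 at 10 h, and no IgG peak over the gene. The 2 h value was highest, but per kb of peak the 3 were 150.5 (fasted), 186.8 (2 h) and 131.8 (10 h), close to each other. A 5S copy, n-R5s188 in Nfib (a transcription factor of the nuclear factor I family), had 49.4 (fasted), 1104.7 (2 h) and 426.3 (10 h) normalised tags and no IgG peak over the gene. Its peak was 744 bp wide in fasted, 17013 bp at 2 h and 5545 bp at 10 h, and per kb the values were 66.4, 64.9 and 76.9. The tags over n-R5s188 thus differed with the width of the peak, not with its density. In all, 9 of the 180 n-R5s genes had a peak in some list, 3 in fasted, 6 at 2 h, 2 at 10 h and 3 with IgG.

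Gm23094, an entry with no family match in Nsd3 (a histone H3 lysine 36 methyltransferase gene), had 759.3 normalised tags at 3.82-fold in fasted and 737.3 at 4.07-fold at 2 h, and no peak at 10 h or with IgG. It was the most tagged IgG-free peak at 2 h. The fasted peak, 2951 bp wide against 1964 bp at 2 h, met an IgG peak. In both lists the peak covered only the smaller part of the gene, so most of Gm23094 lay outside it. Gm25147, nearest to U6 in Mllt10, had 97.9 (fasted), 134.2 (2 h) and 251.7 (10 h) normalised tags, highest at 10 h at a fold of 2.00. Its peaks were 2609, 3475 and 5040 bp wide, and per kb of peak the values were 37.5, 38.6 and 49.9. At 2 h alone among the NONO lists, Gm23354, nearest to U6 in Podn, had 569.4 tags at 2.05-fold, beside 181.1 tags with IgG. Per kb of peak these were 89.1 at 2 h and 63.0 with IgG, but IgG would be the higher if rescaled to tags outside the Rn7sk peak. Gm24996, in Nfe2l2 (the oxidative stress regulator NRF2), had 440.9 tags at 2.16-fold at 2 h and 13.7 tags with IgG. The 2 h peak was 8714 bp wide and the IgG peak 500 bp, and per kb of peak the values were 50.6 and 27.4. Gm24062, nearest to 7SK in Naaladl2, had 115.1 tags in fasted and 249.9 at 2 h, but per kb of peak 60.5 in fasted and 43.5 at 2 h.

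**Figure D5:**
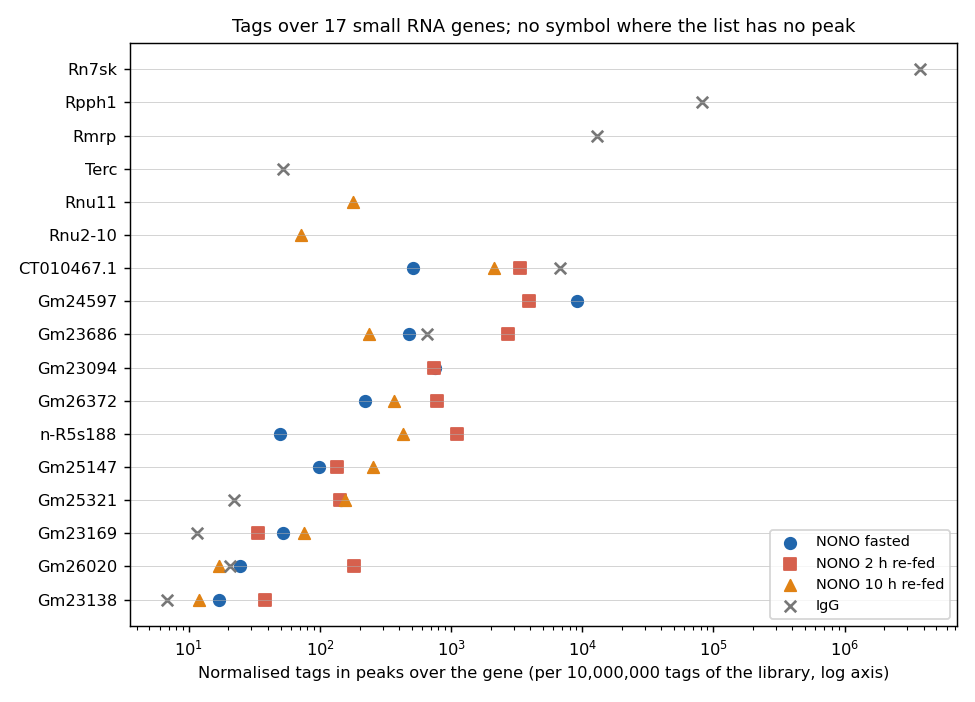
Normalised tags (log axis) in the peaks over 17 small RNA genes for NONO fasted (circles), NONO 2 h re-fed (squares), NONO 10 h re-fed (triangles) and IgG (crosses), with no symbol where a list has no peak over the gene. The 4 genes at the top, Rn7sk, Rpph1, Rmrp and Terc, have IgG values only, and Gm24597 has NONO values only, at 9183.3 and 3940.1.

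Among peaks free of IgG the values were lower. In fasted they were led by Gm22502 (nearest to U6, in Dido1) with 144.5 normalised tags, Gm22591 (U6, in Thumpd3) with 61.8 and Gm23783 (U6, in Mcmbp) with 55.2, then n-R5s188 with 49.4 and Gm27421 (no match, in Atf2) with 46.1. At 2 h, after Gm23094, came Gm23783 with 100, Gm26203 (U6, in Lpgat1) with 94.4, Gm25225 (U6, in Mpp5) with 83 and Gm23084 (5S, in Asb13) with 63.1. At 10 h they were Gm22036 (7SK, in Slco1a1, an organic anion transporter of hepatocytes) with 111.6, Gm23084 with 104.0, Gm25323 (U6, in Thrap3) with 93.0, Gm24399 (U6, in Pds5a) with 68.4 and Gm22717 (no match) with 66.2. Relatives of U6 head the fasted list and make up 3 of the 5 genes in fasted, 3 of 5 at 2 h and 2 of 5 at 10 h.

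Of the misc_RNA genes with no family match, 9 lie within the long non-coding RNA genes Neat1, Kcnq1ot1, Jpx and Pvt1 (chosen after their values were seen). Gm27505 and Gm27533 lie near the 5′ end of Neat1, on the same strand, and shared a fasted peak of 19969 bp with 30057.4 normalised tags at 4.33-fold, beside an IgG peak of 1189.2 tags that also held Gm28006. The 2 h and 10 h lists had no peak over these 3 genes. The genes in Kcnq1ot1, the imprinted antisense RNA of the Kcnq1 locus, also lie within Kcnq1, and unstranded tags cannot be assigned to either. Of these, Gm27539 had 33.8 tags in fasted, 66.4 at 2 h and 119.0 with IgG. Gm27389 and Gm27803 shared peaks of 161.7 tags at 2 h and 93.7 tags with IgG, Gm27803 had a further peak of 30.1 tags at 10 h, and Gm27395 had 35.1 tags at 2 h and 6.32 with IgG. Gm27875 in Jpx, a long non-coding gene of the X-inactivation centre, had 260.3 tags at 2.21-fold at 2 h only, and Gm27718 in Pvt1 had 7.11 tags at 2 h only.

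In the 2 h, 10 h and IgG lists the highest fold of all rested on at most 0.5 input tags (genes chosen after their values were seen), whereas in fasted it was that of Gm24597, 8.40 on 2079 input tags. Gm25189, nearest to U1, stood at 53.32-fold at 2 h with 13.3 normalised tags, Zakit, nearest to 7SK, at 33.82-fold at 10 h with 7.11 tags, and Gm23791, nearest to 7SK, at 27.03-fold with IgG with 6.84 tags. CT010467.1 came next in each of these 3 lists, on 224 to 541.9 input tags. Among peaks of at least 20 normalised tags, the next highest folds after the genes above were 4.57 for Gm23664 at 2 h, 3.99 for Gm25153 (nearest to U1, in Bcar3) at 2 h, 3.61 for Gm23483 in fasted, and 4.84 for Gm25619, 4.27 for Gm22940, 4.03 for Gm27421 and 3.64 for Gm23744 (nearest to U2) at 10 h. With IgG they were 5.07 for Gm26020 and 4.43 for Gm26023. These peaks held between 20.5 and 42.6 normalised tags.

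Small RNA peaks of the fasted and 2 h lists recurred at other times more often than the peaks of those lists in all. Of the fasted peaks, 68.1% (interval 52.9 to 80.9) overlapped a 2 h peak and 59.6% (44.3 to 73.6) a 10 h peak, against 51.2% and 39.6% of all fasted peaks. Of the 2 h peaks, 39.0% (29.7 to 49.1) overlapped a fasted peak and 52.4% (42.4 to 62.2) a 10 h peak, against 28.9% and 40.1% of all. Of the 10 h peaks, 38.9% (27.6 to 51.1) overlapped a fasted peak and 59.7% (47.5 to 71.1) a 2 h peak, against 29.4% and 52.9% of all, which both intervals held. Small RNA peaks were also wider than others, and the part of width in this recurrence was not tested.

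Gene by gene, 15 of the 161 genes with a NONO peak had one at all 3 times. With IgG set aside, 17 had one in fasted alone, 61 at 2 h alone and 34 at 10 h alone, and 13, 41 and 26 of these also had no IgG peak. A further 44 genes had a peak only with IgG. The same counts over all genes were not taken, and the 2 h list was the largest, with 61737 peaks over 71.0 Mb. These counts therefore do not rank the lists. Of 26 genes with a peak at 2 h and in fasted, 10 had tags 2-fold or more higher and 1 had tags 2-fold or more lower at 2 h, with a median ratio of 1.36 (44.8% higher and 7.98% lower over all genes with both, median 1.8). Of 20 genes with a peak at 10 h and in fasted, 5 were higher and 4 lower at 10 h, with a median ratio of 1.01 (31.7% and 9.47% over all genes, median 1.43). Of 33 genes with a peak at 10 h and 2 h, 5 were higher and 13 lower at 10 h, with a median ratio of 0.827 (13% and 24.4% over all genes, median 0.794). The largest differences toward 10 h over 2 h were at Rnu11, Gm26359 (nearest to U6, in Jmjd1c, 123.7 tags at 10 h and no 2 h peak), Gm25147, Gm22036 and Gm24497.

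Gm24497 and Gm23472, 2 near-copies of U2 (99.0% and 99.5% identical to Rnu2-10) that lie in the same host on chromosome 1, had peaks in the same 2 lists. Gm24497 had 96.9 normalised tags at 10 h and 198.5 with IgG, and Gm23472 had 23.5 at 10 h and 24.2 with IgG. Tags over such near-identical genes are uncertain, since reads that match several copies cannot be assigned from these files. Gm25813, also 99.0% identical to Rnu2-10 and in no host gene (chosen after its values were seen), had 14.7 tags in fasted and 19.4 at 2 h, neither with an IgG peak over the gene. Gm22513, the near-copy of U1 with no host, had 272.7 tags (interval 249.7 to 297.2) at 2.29-fold with IgG and no NONO peak.

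Beside the 2 most similar classes of short non-coding genes, the small RNA class had the narrowest range of gene rates over the lists. Per Mb of peak, snoRNA and scaRNA genes under a peak numbered 1.38 in fasted, 0.774 at 2 h, 1.16 at 10 h and 1.3 with IgG, and miRNA genes 3.17, 2.21, 2.08 and 1.39. Tags per Mb of peak were 76.5, 79.9, 395.1 and 152.3 for snoRNA and scaRNA peaks and 458, 275.5, 214.1 and 94.7 for miRNA peaks. The IgG value exceeded every NONO value for the small RNA class, Rn7sk and Rpph1 included, but for neither of the other 2. IgG-free shares were alike in the 3 classes, 56.8% (fasted), 53.8% (2 h) and 59.6% (10 h) for snoRNA and scaRNA peaks and 62.7%, 51.6% and 59.2% for miRNA peaks.

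The genes of the proteins that bind or build these RNAs were under peaks more often than protein-coding genes in all, in the NONO lists and in the IgG list. Of 109 annotated genes in 7 lists of small ribonucleoprotein factors, 48 had a peak in fasted, 74 at 2 h, 57 at 10 h and 59 with IgG, which is 44.0%, 67.9%, 52.3% and 54.1%, against 28.4%, 33.9%, 32.7% and 34.6% of all protein-coding genes. An IgG-free peak was present on 47 (fasted), 71 (2 h) and 53 (10 h) of them, or 43.1%, 65.1% and 48.6%, against 26.4%, 31.3% and 30% of protein-coding genes. Gene length and expression differ between such lists and the rest, and their part was not tested. Of the 29 spliceosomal snRNP proteins, 16 (fasted), 26 (2 h), 17 (10 h) and 18 (IgG) had a peak, led by Prpf6 (a U5 snRNP protein) with 14, 14, 11 and 7 peaks and Sf3b1 (of the U2 snRNP) with 9, 11, 12 and 9.

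Of the 30 genes for snRNA transcription and assembly, 14 (fasted), 20 (2 h), 20 (10 h) and 19 (IgG) had a peak. Ints6, a subunit of the Integrator complex that cleaves snRNA 3′ ends, had 10, 22, 18 and 17 peaks, and Tgs1, which makes the trimethylguanosine cap, had 8, 15, 3 and 6. Of the 7 genes of the 7SK particle, 2 (fasted), 3 (2 h), 3 (10 h) and 3 (IgG) had a peak. Ccnt1 (cyclin T1) had 8, 7, 5 and 2 peaks and Ccnt2 3, 7, 5 and 7, Larp7, the 7SK La-related protein, had 1 at 2 h only, and Hexim1, Mepce and Cdk9 had none in any list. Of the 17 Sm and LSm genes, 5, 8, 5 and 6 had a peak, of 10 signal recognition particle genes 4, 8, 7 and 6, of 5 Ro, La and vault genes 4, 4, 3 and 3, and of 11 RNase P and MRP genes 3, 5, 2 and 4, each in the order fasted, 2 h, 10 h and IgG.

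The libraries held 21032764 (fasted), 21091048 (2 h), 18275033 (10 h) and 18995778 (IgG) tags. As a check of the labelled tissue, of 10 hepatocyte markers 5 (fasted), 5 (2 h), 7 (10 h) and 9 (IgG) lay under a peak, with summed tags of 7219.7, 10520.3, 17219.8 and 18148.5. Of 8 stellate cell markers 2, 3, 2 and 7 did, with 47.1, 46.0, 82.1 and 2539.2 tags, so the IgG library stood apart there too. Reln alone held 2081.1 of these IgG tags. Of 8 Kupffer cell markers 2, 3, 4 and 3 did, of 8 endothelial markers 2, 2, 4 and 3, of 7 lymphocyte and erythroid markers 2 in each list, and of 6 cholangiocyte markers none. The part of the cell mixture in the small RNA values was not tested. Fewer cells and less RNA per cell cannot be told apart in such bulk samples.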

How the data were processed

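Nuclei were isolated from liver on a sucrose cushion and RNA was extracted from the anti-NONO beads, per the labels' protocols, with a stranded total RNA kit that removes rRNA. FastQC 0.11.2, STAR 2.4.0k, HOMER and the build mm10 are named in the submitters' processing notes. Peak calling by the authors with HOMER ignored strand, used 500 bp windows, merged those up to 1000 bp apart and asked for 2-fold over the matched input and 11 tags (8 for IgG), per the file headers. The deposited signal is the authors' tag count of a peak normalised to 10000000 tags of the library. The fold in the deposited lists is a ratio the authors took between a pull-down and its input, scaled to equal depth. The deposited score, per the file headers HOMER's own, only ranked peaks. Inputs were used through these values. The deposited input tags are labelled as normalised to the pull-down at 10 h and with IgG, and carry no such label in fasted and at 2 h. They are not per 10000000 tags.

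Peaks were laid on GENCODE M21, a peak counting for each small RNA gene it overlapped by 1 bp. Nearest families came from BLAST 2.17.0 at an e-value of 1e-05 over at least 50% of the gene. Poisson and Clopper-Pearson intervals are exact, at 95%. Tools were Python 3.11.15 with pandas 2.3.3, scipy 1.17.1 and numpy 2.4.6. The overlap step, tested on made-up positions, found 300 of 300 planted overlaps among 2000 genes.

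The genes, gene lists and comparisons were chosen with earlier results of these data known. The text names genes with a family symbol, and per list the 8 with most tags in peaks covering at least 50% of the gene, the 5 with the highest fold at 20 or more tags and the 5 most tagged without IgG. It also names genes with a peak in all 4 lists, the 5 on each side with the largest tag difference between 2 times, and members of the protein lists with most peaks. Alternatives were a fold of 3, coverage of at least 50% of the gene, equal list lengths, peaks under 5000 bp, genes outside other genes, a rate per 1000 peaks, IgG covering 50% of the peak, and lists without Rn7sk or, added after seeing the data, without Rn7sk and Rpph1 or without Neat1.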

Additional observations from a re-analysis of the deposited data

How the results depend on the processing

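No paired analysis was possible because there is a single library per group. Per 1000 peaks instead of per Mb, the small RNA gene rate at 2 h and 10 h over fasted turned to 1.35 and 1.13 (0.913 and 0.994 per Mb). Restricted to genes outside other genes, the rate was 0.0337 (fasted), 0.155 (2 h), 0.179 (10 h) and 0.22 (IgG) genes per Mb, with 0.496, 3.12, 6.59 and 68685.2 tags per Mb, and the fasted value rests on 1 gene. Tags per Mb in the order fasted, 2 h, 10 h and IgG were 3618.6, 397.3, 165.0 and 114197.1 at a fold of 3, and 121.2, 137.6, 126.6 and 76311.5 without peaks of 5000 bp or more, where the time order no longer held. They were 1411.4, 189.7 and 132.5 in the NONO lists where the peak covers at least 50% of the gene. At equal list length they were 332.2 (2 h), 154.2 (10 h) and 91105.9 (IgG). Without Rn7sk the IgG value was 3114.4. In alternatives chosen after seeing the data, it was 721.1 without Rn7sk and Rpph1, and the fasted value was 430.1 without Neat1. IgG-free shares were 78.6% (fasted), 71.2% (2 h) and 84.6% (10 h) at a fold of 3, 78.7%, 72.4% and 72.2% where IgG must cover 50% of the peak, and 100% (fasted) and 72.7% (2 h) outside other genes. The cause of these shifts was not tested. Depth limits most single peaks, whose median is 17.4 to 30.0 tags, and no replicate error is known.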

Other observations

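The rule on snoRNA and miRNA genes left out 3 peaks with values of interest (chosen after their values were seen). A 2 h peak of 4319 bp over Gm27845 held 974.8 normalised tags at 2.78-fold and also lies over Mir15a and Mir16-1, a microRNA pair that restrains cell division. With IgG, the 7SL genes Rn7s1 and Rn7s2 had 500 bp peaks of 23.7 tags at 2.46-fold and 56.3 tags at 2.42-fold, each also over 2 other short genes of the excluded types, and no NONO peak was seen over them.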
